A study of Mus musculus with 7 samples.

Results

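The constitutive proteasome is described here through the transcripts of its subunits in tibialis anterior (TA) muscle of WT and miR-486 KO mice. Its genes were taken by symbol, as all genes named Psma, Psmb, Psmc or Psmd with a number, leaving out the inducible subunits Psmb8, Psmb9 and Psmb10 and symbols ending in -ps. The symbols matched 39 of the 48795 genes in the count table. Of these, 36 encode subunits or assembly factors of the proteasome, and they fall into 6 sub-complexes: 8 genes of the 20S alpha ring, 8 of the 20S beta ring, 6 ATPases and 3 other subunits of the 19S base, 8 subunits of the 19S lid and 3 chaperones of 19S assembly. The other 3 genes that the symbols matched are not subunits. They are Psmc3ip, a partner of meiotic recombination factors, and the pseudogenes Psmb6-ps2 and Psmb7-ps2, which had 4 and 2 reads over all 7 libraries. In CPM, which are counts scaled to library size by the TMM method, the mean of Psmc3ip was 11.3 CPM (SD 0.559, n = 3) for WT muscle and 11.4 CPM (SD 0.896, n = 4) for KO muscle, and all 3 genes were set aside.

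RNA was sequenced from TA muscle, a fast muscle of the lower leg, of 6-month-old male mice in 3 WT and 4 miR-486 KO libraries, numbered WT 1 to WT 3 and KO 1 to KO 4, and values listed by library keep this order. miR-486 is a muscle-enriched microRNA encoded in an intron of Ank1, and the KO mice lack its hairpin in every cell through a CRISPR deletion present from the germline. By their labels the WT mice were C57BL/6 and the KO mice FVB N/J. The column names of the WT counts read FVB, however, and the study's methods give both genotypes 1 background, so strain and genotype cannot be told apart. Whether each library was a separate animal is not in the labels, and p-values therefore cover only the spread among libraries, which may be technical.

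The proteasome degrades proteins that carry a ubiquitin chain. Its 20S core is a barrel in which outer alpha rings gate the entry and inner beta rings hold the proteolytic sites, and a 19S cap recognises the substrate, removes its ubiquitin and drives it into the barrel with a ring of ATPases. In skeletal muscle this route carries out much of the breakdown of contractile proteins, and subunit genes are known to be switched on together in wasting and when proteasome activity falls short. That joint response runs through the transcription factor Nfe2l1, a relative of the oxidative stress factor Nfe2l2, and through antioxidant response elements that both recognise.

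A library held 23839577 to 28168275 reads counted on genes. The row of the Mir486 hairpin had 1 read in WT 1, 1 in WT 2 and none in the other libraries, too few to detect its loss. Its host gene Ank1 had 7164 to 7746 reads in WT and 6335 to 7037 in KO, which does not test the deletion of an intronic hairpin. The 6 myofibre markers (Acta1, Ckm, Myh4, Tnnt3, Pvalb, Mylpf) summed to 123863 to 140711 CPM in WT and 106676 to 128095 CPM in KO, and none of them passed the test between genotypes. Of 37 markers of 10 other cell types 31 had enough reads to be tested. Of these, 1 endothelial marker (Kdr) and 1 neutrophil marker (S100a9) fell in KO and 0 rose, where 1.85% of all genes tested fell and 0.964% rose. Summed markers did not overlap between genotypes for endothelial cells (258 to 313 CPM in WT, 196 to 227 CPM in KO), tendon (27.8 to 68.8 and 14.8 to 25.1 CPM), satellite cells (1.84 to 2.51 and 0.747 to 1.32 CPM) and neutrophils (0.976 to 4.23 and 0.0822 to 0.338 CPM). Among single genes tested, 11.0% had each KO library above each WT library and 11.4% had each below. The satellite cell and neutrophil sums were low, and 1 of the 3 neutrophil markers had enough reads to be tested. Summed markers overlapped in the other lists, and the part of the markers in the results on the proteasome was not tested. WT 3 stood apart from the other 6 libraries. Mitochondrially encoded transcripts took 22.4% of its gene counts, against 13.0% to 17.9% in the others, and the fold changes of most named genes are given with and without it.

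The promoters were examined for the element that ties proteasome genes to Nfe2l1 and Nfe2l2. RefSeq promoters (GRCm38.p6, 250 bases before to 50 after the transcription start) were at hand for 29 of the 36 genes, 31 promoters in all. The core of the antioxidant response element was searched as TGACNNNGC on both strands, and it was found in 5 promoters of proteasome genes (16.1%). Of 13265 promoters of genes tested, 14.4% held it. CCAAT, the core bound by Nfya, Nfyb and Nfyc and also searched on both strands, was found in 12 of the 31 promoters (38.7%), against 37.0% of all, and did not overlap any of the 5 matches. Both letter strings were about as frequent in proteasome promoters as in promoters overall. The upstream sequences of Psmb6 and Psmb5, encoding the caspase-like and the chymotrypsin-like site, are shown because, with all libraries, these 2 genes had the lowest fold changes of all subunits, values that rest on WT 3. Starts are those of RefSeq and differ by some bases from the GENCODE gene ends given with the values. The sequences run 5′ to 3′ over the 250 bases before the start, with the match in capitals, at chr11:70525107-70525356 (plus strand) for Psmb6 and chr14:54617996-54618245 (minus strand) for Psmb5.
Psmb6: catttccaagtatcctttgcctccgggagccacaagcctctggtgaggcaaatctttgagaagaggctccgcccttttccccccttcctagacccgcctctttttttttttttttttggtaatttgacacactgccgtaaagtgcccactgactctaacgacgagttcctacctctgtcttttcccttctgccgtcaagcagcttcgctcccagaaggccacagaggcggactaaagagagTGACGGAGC
Psmb5: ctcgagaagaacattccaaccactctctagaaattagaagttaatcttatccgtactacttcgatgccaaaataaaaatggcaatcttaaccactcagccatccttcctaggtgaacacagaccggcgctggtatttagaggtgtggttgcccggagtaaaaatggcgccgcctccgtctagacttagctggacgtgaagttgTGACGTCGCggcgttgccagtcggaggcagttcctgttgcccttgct
The match ended 1 base before the start in Psmb6 (positions -9 to -1) and lay at -47 to -39 in Psmb5. The other 3 matches are shown with the bases around them, again with the match in capitals. They lay at -31 to -23 in Psmd9 on chromosome 5, at -227 to -219 in Psmc6 on chromosome 14 and at -247 to -239 in Psmd12 on chromosome 11, and the latter 2 read in the opposite direction.
Psmd9: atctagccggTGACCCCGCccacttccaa
Psmc6: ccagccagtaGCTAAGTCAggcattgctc
Psmd12: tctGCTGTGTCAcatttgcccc
A match is a description of the letters and does not show that a factor binds there.

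Of the 36 genes, 34 had enough reads to be tested. Psma8, an alpha subunit of the testis, had 1 read in WT 1, 1 in KO 1 and 0 elsewhere. Psmb11, the beta subunit of cortical epithelium in the thymus, had 0 reads in each library, and a count of 0 allows up to 3 counts, or 0.107 to 0.126 CPM by library, counting error only. Neither was detectable at this depth. Levels between genes are compared as CPM per kb of the principal annotated transcript. On that scale Psmb6 had the highest mean level of the 34 over the 7 libraries, at 185 CPM per kb (SD 62.8). It was followed by the alpha subunits Psma7 (122, SD 25.2) and Psma6 (120, SD 12.9), by Psmb3 (118, SD 38.0), and by Psmc3, an ATPase (118, SD 10.5). At the lower end of the true subunits were Psmd13 of the lid (32.4, SD 5.18), Psmb5 (31.4, SD 9.71) and Psma2 (29.7, SD 5.03). The value of Psma2 rests on a principal transcript of 2911 bases. The 3 chaperones of 19S assembly, which leave the finished particle, were at 7.03 CPM per kb (SD 0.761) for Psmd9, 5.34 (SD 0.310) for Psmd10 and 4.24 (SD 0.326) for Psmd5. Exons of 9 of the 36 genes share bases with another annotated gene. The partner lies on the same strand for Psmb5 (Mir686) and Psmd1 (Gm21972). Opposite-strand partners include those of Psmb7 (Nek6), Psmc3 (Slc39a13), Psmd1 (Htr2b), Psmd13 (Sirt3) and Psmd9. Reads on bases shared on the same strand may be mixed or left out as ambiguous, whatever the strand setting of the counting. The sources used here do not give that setting, so the same may hold for opposite-strand partners. Between neighbours in this order the libraries overlapped, except between Psma2 and Psmd9 and between Psmd10 and Psmd5.

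**Figure D1:**
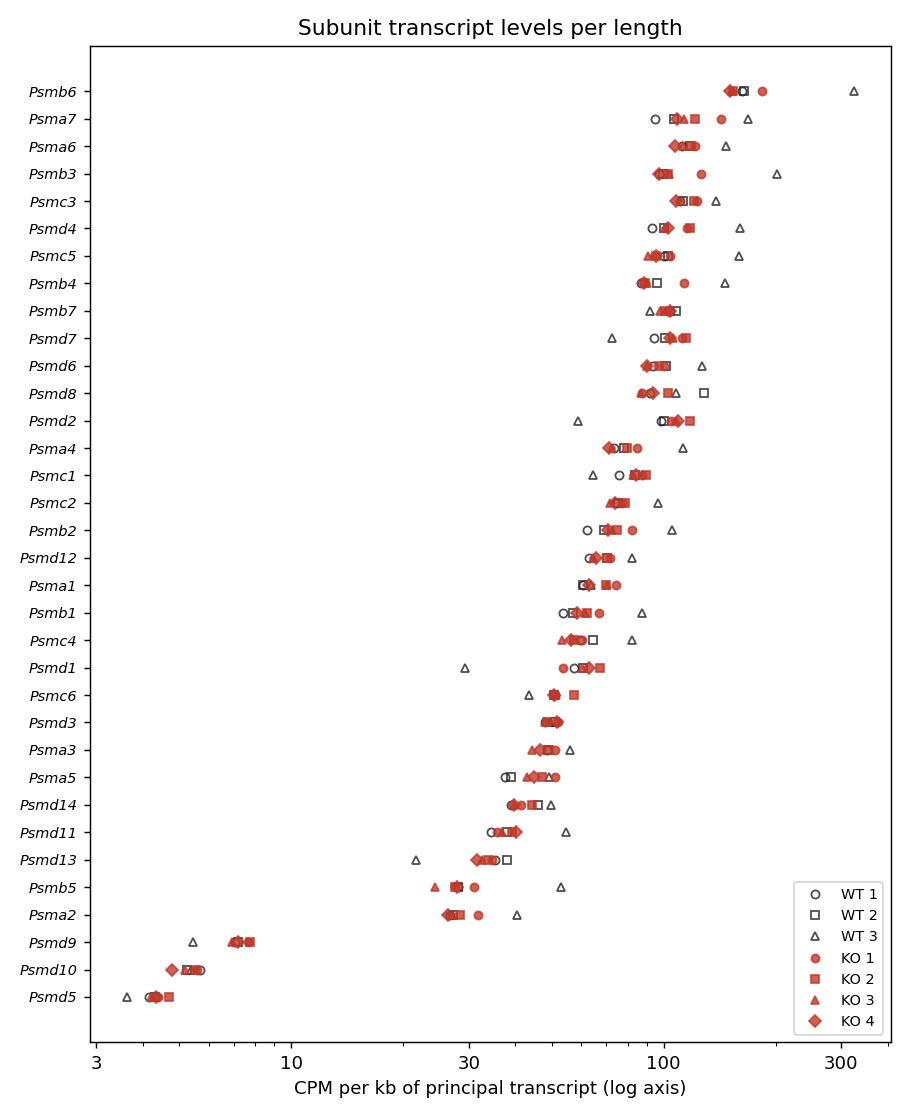
Level of each tested proteasome gene in CPM per kb of principal transcript (log axis), 1 symbol per library, open black for WT and filled red for KO, with genes ordered by the mean of the 7 libraries. The 3 assembly chaperones Psmd9, Psmd10 and Psmd5 lie apart at 7.03 CPM per kb and below, Psmb6 leads at a mean of 185, and WT 3 (open triangle) is the farthest from the rest in many genes.

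The main comparison asked whether loss of miR-486 changed the transcripts of the proteasome in muscle. No subunit passed the test in either direction. In the edgeR quasi-likelihood test (threshold 0.05 after Benjamini-Hochberg adjustment over the 14002 genes tested), 0 of the 34 were higher and 0 were lower in KO, whereas over all genes tested 0.964% were higher and 1.85% were lower. At an unadjusted p under 0.05 there were also 0 of the 34, against 20.2% of all genes. The lowest unadjusted p was 0.0728, for Psmd7 (adjusted edgeR p 0.293). The log2 fold changes, KO over WT, ran from -0.44 for Psmb6 to 0.36 for Psmd2 with a median of -0.08, and 12 were positive and 22 negative. Over all genes the median was -0.02. The median size of the fold change without its sign was 0.15 for the 34 and 0.24 for all genes, and the median SE was 0.14 and 0.20. The 95% intervals of the 34 lay between -1.01 (Psmb6) and 0.87 (Psmd1), so changes up to that size were not excluded in those genes. DESeq2 and voom with quality weights called 0 of the 34 as well, with 0 and 1 at an unadjusted p under 0.05, where they called 7.98% and 16.8% of all genes. In whole muscle, fewer cells of a type and less RNA per cell cannot be told apart.

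Leaving out WT 3 narrowed the intervals and moved the centre. The median SE of the 34 dropped to 0.08 and the intervals lay between -0.52 and 0.52. Again 0 of the 34 were higher and 0 lower past the threshold, where 6.15% of all genes were higher and 6.55% lower. Now 23 fold changes were positive and 11 negative, with a median of 0.05 and a range from -0.24 to 0.29, and 15 of the 34 had the other sign than with all libraries. At an unadjusted p under 0.05 there were 4 of the 34, all of the 20S core, beside 27.6% of all genes. They were Psma1, Psma5, Psma7 and Psmb2, and the first in order of p was Psma5 with a log2 fold change of 0.29 and an adjusted edgeR p of 0.0515.

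**Figure D2:**
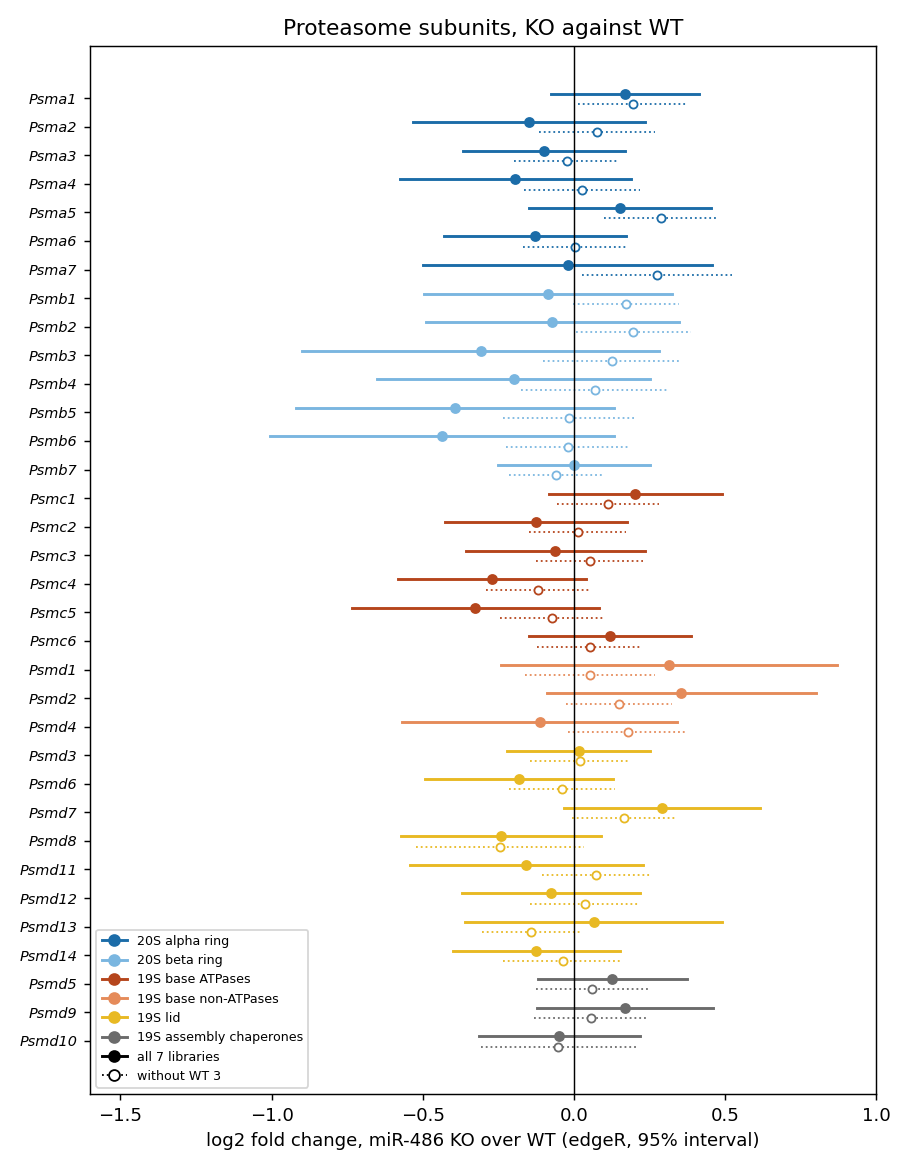
Log2 fold change of each proteasome gene, KO over WT, with its 95% interval from edgeR, coloured by sub-complex. Filled points with solid lines use all 7 libraries and open points with dotted lines leave out WT 3. All solid intervals include 0, and without WT 3 the values gather between -0.24 and 0.29.

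Within the 20S alpha ring, which opens and closes the way into the core, 7 of 8 genes were tested, 2 fold changes were positive and 5 negative, and the median was -0.10 (0.08 without WT 3). Psma1 had the highest fold change of the ring. It was at 73.0, 73.1 and 76.5 CPM in WT and 89.3, 84.1, 84.5 and 75.7 CPM in KO. Only KO 4 lay within the range of WT, and the log2 fold change was 0.17 (SE 0.11, adjusted edgeR p 0.403), or 0.20 without WT 3. Psma4 had the lowest fold change. It was at 85.6, 91.3 and 131 CPM in WT and 98.7, 92.6, 84.8 and 83.1 CPM in KO. Its WT 3 value was the highest of the 7 and the others overlapped, and its log2 fold change was -0.19 (SE 0.17), or 0.03 without WT 3. Psma7 had the highest level of the ring per length in the mean over all libraries, WT 3 included. It was at 86.8, 97.6 and 154 CPM in WT and 131, 111, 103 and 99.6 CPM in KO. With all libraries its log2 fold change was -0.02 (SE 0.21, adjusted edgeR p 0.963), and without WT 3, when each KO library was above both WT libraries, it was 0.28 (adjusted edgeR p 0.139). Psma5, named after its values were seen, was at 46.4, 48.3 and 61.0 CPM in WT and 63.3, 58.5, 53.2 and 55.6 CPM in KO, and there too each KO library was above WT 1 and WT 2 (log2 fold change 0.15, or 0.29 without WT 3). The same order held for Psma1, Psmb1, Psmb2, Psmd2, Psmd4 and Psmd7. Its share over all genes was not counted, so it is a description only. The log2 fold changes of the other members, Psma2, Psma3 and Psma6, were between -0.15 and -0.10, and between -0.02 and 0.08 without WT 3.

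The 20S beta ring holds the 3 kinds of proteolytic site, and its tested genes had log2 fold changes with a median of -0.20 (0.07 without WT 3), 1 of 7 being positive. Psmb6, the caspase-like subunit (ENSMUSG00000018286.6, chromosome 11, 70525367 to 70527858, plus strand, GRCm38), was at 129, 131 and 259 CPM in WT and 147, 123, 122 and 120 CPM in KO. WT 1 and WT 2 lay among the KO libraries and WT 3 was far above all. Its log2 fold change was -0.44 (SE 0.25, adjusted edgeR p 0.363), and it was -0.02 without WT 3. Psmb5, the chymotrypsin-like subunit and the target of clinical proteasome inhibitors (ENSMUSG00000022193.6, chromosome 14, 54614119 to 54618022, minus strand), was at 25.3, 25.2 and 47.6 CPM in WT and 27.9, 24.7, 21.9 and 25.0 CPM in KO. It showed the same order, with WT 3 alone high, a log2 fold change of -0.39 (SE 0.23, adjusted edgeR p 0.374) and -0.02 without WT 3. Psmb7, the trypsin-like subunit (ENSMUSG00000026750.6, chromosome 2, 38588036 to 38644087, minus strand), was at 120, 125 and 107 CPM in WT and 118, 117, 113 and 121 CPM in KO. Here WT 3 was the lowest library, and the log2 fold change was 0.00 (SE 0.11, adjusted edgeR p 0.996), with a 95% interval from -0.25 to 0.25. It was -0.06 without WT 3. WT 3 was thus the highest library for 2 of the 3 catalytic subunits and the lowest for the other. Among the beta subunits without a proteolytic site, Psmb3, named after its values were seen, was at 74.5, 76.3 and 154 CPM in WT and 96.4, 78.6, 79.0 and 74.3 CPM in KO, with a log2 fold change of -0.31, or 0.13 without WT 3. Psmb1, Psmb2 and Psmb4 had WT 3 as their highest library and log2 fold changes between -0.20 and -0.07, which lay between 0.07 and 0.20 without it.

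The 6 ATPases of the 19S base, Psmc1 to Psmc6, form the ring that unfolds the substrate. Their median log2 fold change was -0.09 (0.03 without WT 3), with 2 positive and 4 negative. Psmc1 had the highest fold change. It was at 121, 133 and 103 CPM in WT and 139, 142, 132 and 135 CPM in KO. WT 2 overlapped the KO libraries and WT 3 was the lowest, and the log2 fold change was 0.20 (SE 0.13, adjusted edgeR p 0.393), or 0.11 without WT 3. Psmc5, with the lowest, was at 132, 135 and 210 CPM in WT and 137, 126, 120 and 125 CPM in KO, with a log2 fold change of -0.33 (SE 0.18, adjusted edgeR p 0.345), or -0.07 without WT 3. Psmc3, the most abundant ATPase per length, was at 181, 185 and 226 CPM in WT and 200, 197, 182 and 177 CPM in KO, and its log2 fold change was -0.06 (SE 0.13), or 0.05 without WT 3. The ring holds 1 copy of each. In WT 3 Psmc2, Psmc3, Psmc4 and Psmc5 were above the other 6 libraries and Psmc1 and Psmc6 below them.

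The 3 other subunits of the base had the highest median of the sub-complexes, 0.31, which was 0.15 without WT 3. Psmd2, a scaffold that receives ubiquitin-like domains of shuttle proteins (ENSMUSG00000006998.15, chromosome 16, 20651652 to 20663414, plus strand), was at 291, 297 and 174 CPM in WT and 309, 348, 319 and 325 CPM in KO. Each KO library was above each WT library, the gap being small against WT 1 and WT 2 and wide against WT 3. Its log2 fold change was 0.36 (SE 0.19, adjusted edgeR p 0.345), and 0.15 without WT 3 (adjusted edgeR p 0.255). Psmd1, the other scaffold (ENSMUSG00000026229.17, chromosome 1, 86064387 to 86139151, plus strand), was named after its values were seen. It was at 179, 189 and 91.0 CPM in WT and 167, 210, 188 and 197 CPM in KO, with WT 3 alone low and WT 1 and WT 2 within the range of KO. Its log2 fold change was 0.31 (SE 0.24, adjusted edgeR p 0.488), or 0.05 without WT 3. Psmd4, a ubiquitin receptor, was at 124, 134 and 214 CPM in WT and 154, 157, 134 and 137 CPM in KO, where WT 3 was the highest library. Its log2 fold change was -0.11 (SE 0.20), or 0.18 without WT 3.

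The 19S lid carries the enzyme that strips ubiquitin from the substrate, and its 8 genes had log2 fold changes with a median of -0.10 (-0.01 without WT 3), with 3 positive and 5 negative. Psmd14, that deubiquitinating enzyme, was at 59.9, 71.0 and 77.0 CPM in WT and 63.9, 68.3, 60.9 and 61.3 CPM in KO, groups that overlapped. Its log2 fold change was -0.12 (SE 0.12, adjusted edgeR p 0.579), or -0.04 without WT 3. Psmd7, which pairs with Psmd14 in the lid (ENSMUSG00000039067.5, chromosome 8, 107580381 to 107588464, minus strand), was at 149, 160 and 115 CPM in WT and 177, 181, 168 and 165 CPM in KO. All KO libraries were above all WT libraries, WT 3 being the lowest. Its log2 fold change of 0.29 (SE 0.14, adjusted edgeR p 0.293) became 0.17 without WT 3 (adjusted edgeR p 0.193). Psmd2 and Psmd7 were the only 2 of the 34 in which each KO library was above each WT library, as 11.0% of all genes were, and 0 of the 34 lay below in the same way, as 11.4% of all genes did. Psmd8, with the lowest fold change of the lid, was at 142, 198 and 167 CPM in WT and 134, 158, 134 and 144 CPM in KO, with WT 2 and not WT 3 the highest library and a log2 fold change of -0.24 (SE 0.14, adjusted edgeR p 0.383), also -0.24 without WT 3. The remaining lid genes, Psmd3, Psmd6, Psmd11, Psmd12 and Psmd13, had log2 fold changes between -0.18 and 0.07, and between -0.14 and 0.07 without WT 3.

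Of the chaperones that help the base to assemble, Psmd9 was at 18.3, 18.7 and 14.2 CPM in WT and 19.9, 20.1, 18.0 and 18.7 CPM in KO, with WT 3 alone low and a log2 fold change of 0.17 (SE 0.13, adjusted edgeR p 0.477), or 0.06 without WT 3. Psmd10, also known as the oncoprotein gankyrin, was at 8.16, 7.51 and 7.69 CPM in WT and 8.01, 7.87, 7.44 and 6.83 CPM in KO, with a log2 fold change of -0.05 (SE 0.12), also -0.05 without WT 3. Psmd5 had a log2 fold change of 0.13 (SE 0.11), or 0.06 without WT 3. The groups overlapped in all 3.

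Transcript levels of the subunits varied little between the libraries other than WT 3. Over the other 6 libraries the coefficient of variation of a subunit's CPM had a median of 6.56% (3.12% for Psmc2 to 15.9% for Psmd8). It was 13.0% for all genes and 9.44% for genes in the same range of CPM. With WT 3 these medians were 14.4%, 20.7% and 16.1%. WT 3 was above the other 6 libraries in 20 of the 34 genes and below them in 9, against 36.2% and 34.5% of all genes. Among the 7526 genes in the same range of CPM it was above in 2403 and below in 3464. The deviations from the median of the 7 libraries had an SD over the 34 genes of 0.51 log2 units in WT 3 and of 0.06 to 0.11 in the others. Over all genes this SD was 0.78 in WT 3 and 0.25 to 0.41 in the others. In the same range of CPM it was 0.73 and 0.14 to 0.31, so the 34 genes spread less than genes at large in WT 3 too. The direction followed the sub-complex in part. WT 3 was above in 11 of 14 genes of the 20S core, by a median of 0.55 log2 units over all 14, but above in 9 and below in 6 of 17 genes of the 19S cap. The extremes were Psmb6, at 1.01 log2 units relative to the mean of the other libraries, and Psmd1, at -1.05. Psmd13 of the lid, named after its values were seen, was also low in WT 3, at 70.2, 75.3 and 43.1 CPM in WT and 68.7, 67.1, 64.6 and 62.6 CPM in KO.

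**Figure D3:**
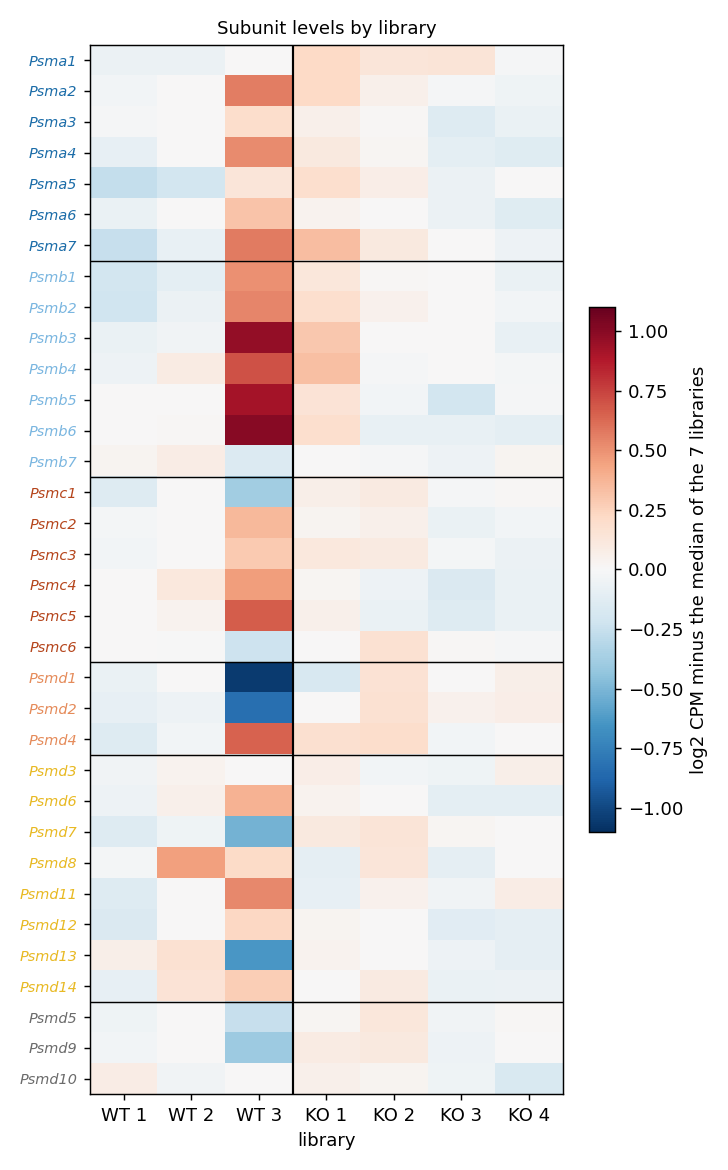
Log2 CPM of each tested proteasome gene in each library minus the median of the 7 libraries, red above and blue below, with genes grouped by sub-complex (horizontal lines, label colours) and WT left of the vertical line. The WT 3 column is red in most of the 20S core, up to about 1 log2 unit in Psmb6, and deep blue in Psmd1 and Psmd2, while the other columns stay pale.

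Summed over the 14 genes of the core and the 17 of the cap, CPM of 20S transcripts were 1225, 1283 and 1837 in WT and 1458, 1315, 1262 and 1244 in KO, and CPM of 19S transcripts were 2233, 2411 and 2401 in WT and 2379, 2491, 2278 and 2330 in KO. The ratio of the sums was 0.549, 0.532 and 0.765 in WT and 0.613, 0.528, 0.554 and 0.534 in KO. WT 3 had the highest ratio and KO 1 the next, and the other 5 lay close together in both genotypes. The ratio of Psmb6 to Psmd1 CPM spread further, from 0.583 in KO 2 to 0.880 in KO 1 and 2.85 in WT 3. KO 1 was the highest of the 4 KO libraries in 13 of the 14 core genes and in 21 of all 34, against 33.8% of all genes tested. The shares of mitochondrially encoded transcripts were 13.3%, 13.0% and 22.4% in WT and 17.9%, 15.8%, 17.2% and 15.9% in KO, and reads without a unique alignment were 24.7%, 24.4% and 34.3% of the table in WT and 30.3%, 27.4%, 28.0% and 27.1% in KO. WT 3 was highest and KO 1 the next highest in both measures too, and their part in the ratio was not tested.

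The excess or deficit in WT 3 also went with transcript length. Of the 16 proteasome genes with a principal transcript under 1500 bases, WT 3 was above the other libraries in 12 and below in 1, with a median difference of 0.55 log2 units. Of the 18 longer ones it was above in 8 and below in 8, with a median of 0.07. Over the 34 genes Spearman's rho between the difference and the length was -0.62, and over 12595 tested genes with a principal transcript it was -0.37. With the GC content of the transcript rho was 0.27 and 0.32. All genes of a correlation share the same 7 libraries, so these are descriptions. Core transcripts were shorter, with a median of 1163 bases against 1636 in the cap, and length and sub-complex cannot be told apart within these genes. Psmd4, a cap gene with a transcript of 1332 bases, was high in WT 3, and Psma2, a core gene with 2911 bases, was high as well.

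**Figure D4:**
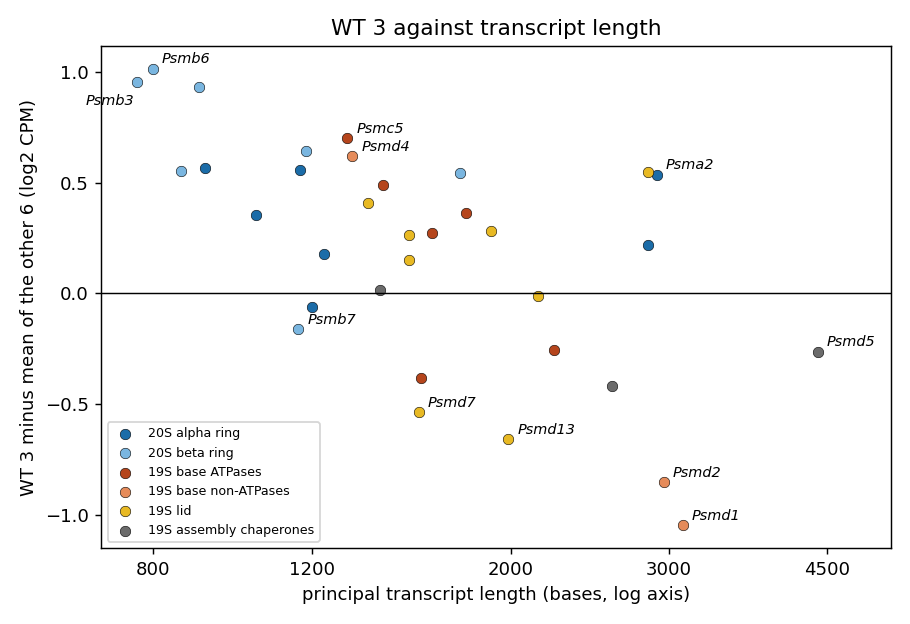
Difference between WT 3 and the mean of the other 6 libraries in log2 CPM against the length of the principal transcript in bases (log axis), 1 point per proteasome gene, coloured by sub-complex. Short transcripts such as Psmb6 and Psmb3 lie highest, at 1.01 and 0.95, and the long Psmd2 and Psmd1 lowest, at -0.85 and -1.05 (rho -0.62).

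The genes around the proteasome were read from a list of 49, of which 48 were in the table and tested, and 2 rose and 0 fell past the threshold (0.964% and 1.85% of all genes). Both belong to the 11 transcription factors of proteasome genes and factors of their processing. Nfe2l2, the main factor of the antioxidant response, was at 33.4, 35.6 and 29.1 CPM in WT and 79.8, 52.0, 57.5 and 51.9 CPM in KO. All KO libraries were above all WT libraries and KO 1 was the farthest. It rose by 0.88 on the log2 scale (SE 0.18, adjusted edgeR p 0.0410), and by 0.81 without WT 3 (adjusted edgeR p 0.0109). Mafk, a small Maf protein that pairs with Nfe2l2 and Nfe2l1 on DNA, was at 13.5, 12.2 and 15.1 CPM in WT and 22.6, 21.5, 20.1 and 21.5 CPM in KO. The KO libraries lay close together and above WT, and it rose by 0.66 on the log2 scale (SE 0.11, adjusted edgeR p 0.0270), or by 0.74 without WT 3. DESeq2 (adjusted DESeq2 p 2.4e-05 for Mafk and 0.00044 for Nfe2l2) and voom (adjusted voom p 0.00029 and 0.0027) called both as well. So did the other filters and scaling and the fit without mitochondrially encoded genes, but not the replicate block. Both calls rest on few libraries. Leaving out any 1 library other than WT 3 left neither past the threshold. The adjusted edgeR p was then between 0.0632 and 0.0981 for Mafk and between 0.0736 and 0.12 for Nfe2l2. In these omissions the count of all genes past the threshold fell too, from 394 to between 20 and 289. Over all 7 single omissions the log2 fold changes stayed between 0.60 and 0.74 for Mafk and between 0.72 and 0.96 for Nfe2l2.

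Nfe2l1, the factor of the response to failing proteasome activity, did not pass. It and its activators are given for their role, after their values were seen. Nfe2l1 was at 758, 742 and 345 CPM in WT and 672, 840, 790 and 823 CPM in KO, with WT 3 alone low and a log2 fold change of 0.34 (SE 0.26, adjusted edgeR p 0.487), or 0.06 without WT 3. Ddi2 and Ngly1, the protease and the deglycosylating enzyme that activate the Nfe2l1 protein, had log2 fold changes of 0.20 (SE 0.18) and 0.28 (SE 0.20), which were 0.04 and 0.06 without WT 3. Of the 5 subunit genes whose promoters hold the antioxidant response core, 3 fold changes were negative (Psmb5, Psmb6, Psmd12) and 2 positive (Psmd9, Psmc6). None passed the test, and without WT 3 the 5 lay between -0.02 and 0.06.

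**Figure D5:**
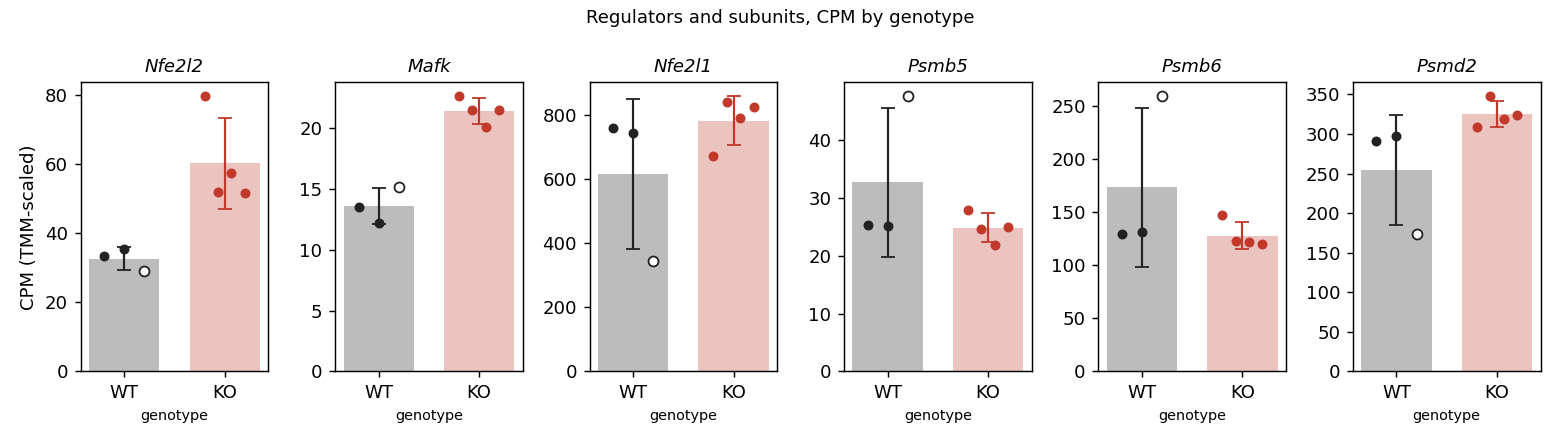
CPM of the factors Nfe2l2, Mafk and Nfe2l1 and of the subunits Psmb5, Psmb6 and Psmd2 by genotype. Bars are means from 0, error bars SD (n = 3 WT, n = 4 KO), points single libraries, and the open point is WT 3. Nfe2l2 and Mafk are higher in each KO library than in each WT library, Psmb5 and Psmb6 overlap apart from WT 3, and Psmd2 is low in WT 3 at 174 CPM.

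The inducible subunits, which replace the catalytic ones in immune cells and under interferon, were scarce in this muscle and did not pass. Psmb8 was at 2.87, 3.08 and 3.70 CPM in WT and 4.89, 3.02, 6.65 and 2.96 CPM in KO. KO 3 and KO 1 were high and the others lay within or near the WT range (log2 fold change 0.45, SE 0.30, adjusted edgeR p 0.431). That value was 0.57 without WT 3 and 0.17 without KO 3. Psmb9 was at 2.56, 2.97 and 2.67 CPM in WT and 4.17, 2.42, 6.43 and 1.89 CPM in KO, with the same 2 libraries high (0.45, SE 0.39, adjusted edgeR p 0.532). It stayed at 0.45 without WT 3, but was 0.05 without KO 3 and 0.67 without KO 4. Psmb10 was at 10.7, 9.87 and 15.6 CPM in WT and 10.04, 8.38, 11.8 and 9.42 CPM in KO, with WT 3 the highest and KO 3 the highest of KO (-0.28, SE 0.19, adjusted edgeR p 0.435), and its log2 fold change was -0.05 without WT 3. The 6 macrophage and leukocyte markers, of which 0 passed, summed to 41.8 to 88.3 CPM in WT and 34.4 to 60.1 CPM in KO, and their part in the inducible subunits was not tested.

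The other lists held no call with all libraries. The median log2 fold change was -0.23 for the 5 chaperones of 20S assembly (Psmg1 to Psmg4 and Pomp), 0.09 for the 5 activators and inhibitor of the core, 0.18 for the 8 tested proteins associated with the proteasome, 0.19 for the 8 substrate shuttles and unfoldase genes, and -0.13 for the 6 ubiquitin and ubiquitin-activating genes. Without WT 3 these medians were -0.0041, 0.15, 0.07, 0.0095 and 0.09 in the same order. For Adrm1 and Sem1, 2 subunits under other names, the median was -0.26, or 0.10 without WT 3. For all 11 transcription factors and processing factors it was 0.34, or 0.20 without WT 3. Psme4, an activator of the core, and Sem1 were named after their values were seen. Psme4 was at 401, 371 and 165 CPM in WT and 367, 506, 405 and 433 CPM in KO (log2 fold change 0.45, or 0.15 without WT 3). Sem1, a small lid subunit, was at 73.4, 70.1 and 154 CPM in WT and 83.3, 67.8, 69.4 and 68.6 CPM in KO (-0.46, or 0.015 without WT 3). In both, WT 3 alone lay far from the rest, low for Psme4, whose principal transcript has 6491 bases, and high for Sem1 with 1472 bases. Without WT 3, 6 of the 48 genes rose and 1 fell, where 6.15% of all genes rose and 6.55% fell. The additional rises were Txnl1, a thioredoxin-like protein of the cap (log2 fold change 0.29, adjusted edgeR p 0.0403), the ubiquitin ligase Ube3a (0.39, adjusted edgeR p 0.0232), the shuttle Ubqln2 (0.35, adjusted edgeR p 0.0463) and the small Maf protein Maff (2.07, adjusted edgeR p 0.0341). Maff was at 2.01, 2.03 and 4.86 CPM in WT and 17.6, 5.09, 5.27 and 5.84 CPM in KO. KO 1 was far above the rest, and WT 3 lay close to the other KO libraries. With all libraries the log2 fold change of Maff was 1.52 (adjusted edgeR p 0.175). The fall was in Uba1, the main ubiquitin-activating enzyme (-0.31, adjusted edgeR p 0.0290).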

How the data were processed

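RNA was sequenced from TA muscle in 3 WT and 4 miR-486 KO libraries, grouped by sample title. The authors deposited raw read counts per Ensembl gene. Tools in the submitters' notes are HTSeq 0.6.1, STAR 2.5.2b, Trim Galore 0.4.2 and CASAVA 1.8.2, whereas the study's methods describe Salmon. For the counting, the sources used here name no genome build, annotation or strand setting. The labels describe Trizol extraction and the methods another kit with removal of ribosomal RNA. Reads without a unique alignment (24.4% to 34.3% of the table) were not counted, so genes with near-identical pseudogenes may be undercounted. The 5 summary rows, which also hold reads without a feature (3.25% to 4.34%) and ambiguous reads (4.04% to 4.44%), were kept out of library sizes.

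Of 48795 identifiers, 48349 were matched to GENCODE M21 (GRCm38) for symbols, positions and principal transcripts. The test was edgeR 4.0.16 under R 4.3.3, with glmQLFit and glmQLFTest after TMM scaling, on the 14002 genes that passed filterByExpr (minimum count 10). Alternatives used DESeq2 1.42.0, limma 3.58.1 (voom), other filters and scalings, a replicate block and each library left out. The edgeR fit of the main comparison was also run on simulated data. The outcome of that run is not given here, and no value above rests on it. No pair of libraries agreed within sampling noise (chi-square per degree of freedom 7.39 to 262). The members and gene lists were chosen with earlier results of these data known. Named genes were, in each sub-complex, those with the highest and lowest fold change and the highest level per length, the catalytic subunits, Psmd2, Psmd4, Psmd14, Psma8, Psmb11, members and related genes past the threshold and the inducible subunits. Others are marked or given as ranges.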

Additional observations from a re-analysis of the deposited data

Results flagged for a closer look

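The values of the 4 KO libraries were screened in 39 groups, for the tested proteasome genes, the inducible subunits, Nfe2l2 and Mafk. The other related genes, Maff and Sem1 among them, were not screened. Of the 39 groups, 3 held a library whose gap to the next was above Dixon's critical share of the range. Chance flags about 1 in 20 groups. Psmb4, a beta subunit, was at 134.2 CPM in KO 1 against 105 to 107 CPM in the other KO libraries (gap over range 0.942). Psmb6, the caspase-like subunit, was at 146.8 CPM in KO 1 against 120 to 123 CPM (0.915). Psmc6, an ATPase, was at 128.2 CPM in KO 2 against 113 to 115 CPM (0.872). Without KO 1 the log2 fold change of Psmb6 was -0.51, and it stayed short of the threshold.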

How the results depend on the processing

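The count of proteasome genes past the threshold was 0 in either direction with all libraries and under each of the 14 alternatives. Their median log2 fold change was -0.08, and it was between -0.18 (without WT 1) and 0.052 (without WT 3) when single libraries were left out. Of 294 comparisons of named genes, 18 changed the sign of a fold change that was not past the threshold, and the causes were not tested. Psma7 was at 0.016 without a filter, at 0.18 with voom quality weights and between -0.175 and 0.28 with single libraries left out. Psmb7 was at -0.015 with at least 1 CPM in 3 libraries, at -0.00046 without mitochondrially encoded genes, at -0.061 with voom and between -0.059 and 0.061 with libraries left out. With voom Psmc3 was at 0.012 and Psmd4 at 0.12, and with libraries left out they were between -0.12 and 0.053 and between -0.255 and 0.18, and Psma4 between -0.31 and 0.027. Over the 34 genes, 15 changed sign without WT 3, 10 with voom and 0 to 2 under the other alternatives. Over all genes, 394 passed with all libraries, 1118 with DESeq2, 557 without a filter, 2347 with voom, 1802 without WT 3, 289 and 139 without WT 1 and WT 2, and 20 to 48 without a KO library.

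Deviations of same-numbered WT and KO libraries from their group means had r of -0.31, 0.26 and -0.12. With so few libraries, and WT 3 apart from the rest, these values cannot decide whether the numbers pair libraries. The labels do not say it. With the replicate block 0 genes passed over all and 0 of the 34, the median was -0.03, Psma7 was at 0.069 and Psmb7 at -0.0094, and Mafk and Nfe2l2 were no longer called (adjusted edgeR p 0.279 and 0.242). Precision limits all values, since 3 and 4 libraries gave a median SE of 0.14.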
